A study of Arabidopsis thaliana with 6 samples.

Results

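In Arabidopsis endosperm at 7 days after pollination, 555 regions had a CHH methylation level in mat nrpd1+/- that differed both from WT and from pat nrpd1+/-, and at 391 of them (70.5%) methylation was higher in mat nrpd1+/-. The regions were chosen by their measured differences: each was a row of the list of CHH differentially methylated regions (DMRs) between mat nrpd1+/- and WT, overlapped by at least 1 bp a row of the list between mat nrpd1+/- and pat nrpd1+/-, and overlapped no row of the list between pat nrpd1+/- and WT. They were 555 of the 2234 regions of the mat nrpd1+/- against WT list (24.8%) and covered 208.4 kb. Both CHH differences with mat nrpd1+/- were therefore used in the choice and are given below as a description, with no test.

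The 6 whole-genome bisulfite libraries came from 3 crosses with 2 replicates each. In mat nrpd1+/-, a Ler nrpd1-/- female was crossed with a Col-0 male, so that the mutant allele came from the mother. In pat nrpd1+/-, a Ler female was crossed with a Col-0 nrpd1-/- male. WT endosperm came from a Ler female crossed with a Col male. All 3 crosses thus joined a Ler mother and a Col father, and both mutant crosses gave F1 endosperm with a functional NRPD1 copy from the other parent. The mutation is a single T-DNA insertion allele made in Col-0 and brought into Ler by repeated crossing, so Col-0 segments can remain in the Ler nrpd1-/- mothers, which the other mothers lack. Hand-dissected endosperm of many seeds was pooled in each replicate, and in such bulk DNA a change in all cells and a change in the share of cells that are methylated cannot be told apart.

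DNA methylation in plants occurs at cytosines in CG, CHG and CHH contexts, where H is any base but G. CHH methylation has no symmetric partner on the other strand and has to be placed anew after each replication. In RNA-directed DNA methylation, RNA polymerase IV, whose largest subunit is encoded by NRPD1, makes transcripts that are turned into small RNAs, and these guide the methyltransferase DRM2. A separate chromomethylase, CMT2, places CHH methylation in heterochromatin without small RNAs. In the endosperm, DNA demethylation by DEMETER in the central cell before fertilisation leaves the maternal genome less methylated than the paternal one at many sites, and NRPD1 alleles from the mother and the father are present in unequal copy number.

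Only differences in percentage points were deposited, 1 for each region and pair of genotypes, computed by the authors from pooled replicates. No replicate spread, level or read depth stands behind a value, no test over samples was possible, and listed means past the authors' threshold of 10 percentage points. Of the 300-bp windows of sequence that the authors kept for mat nrpd1+/- and WT, 1.47% touched a region of the mat nrpd1+/- against WT list, 0.734% one with lower and 0.734% one with higher methylation in mat nrpd1+/-. The share was 1.44% for mat nrpd1+/- against pat nrpd1+/- and 1.12% for pat nrpd1+/- against WT. All 555 regions lay in sequence where the maternal fraction of reads was accepted by the authors in all 3 genotypes. This fraction is given for blocks of sequence, and neighbouring regions often share a block, so it was not measured at single regions. With each region given the value of its block, the median was 0.632 in mat nrpd1+/-, 0.636 in pat nrpd1+/- and 0.633 in WT. The ranges were 0.585 to 0.740, 0.547 to 0.739 and 0.573 to 0.709. The authors kept sequence by this same fraction, so the values are bounded by that filter and are no check of the labelled tissue. Marker genes are read from RNA and are not covered by these DNA data. The paper tested its mRNA libraries for seed coat tissue and saw no sign of it.

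The sequences of 3 of the regions with the strongest losses and gains are shown because they carry extremes of the differences and show how unlike each other these regions are. They are the Col-0 reference sequence of TAIR10.1 from RefSeq, plus strand, whereas the maternal alleles in these crosses were Ler. Capitals mark the cytosines in CHH context, as C where the cytosine is on the printed strand and as G where it is on the opposite strand. Of the gained regions, which were 400 bp long, the central 300 bp are printed.
Strongest loss, chr4:7561501-7561800: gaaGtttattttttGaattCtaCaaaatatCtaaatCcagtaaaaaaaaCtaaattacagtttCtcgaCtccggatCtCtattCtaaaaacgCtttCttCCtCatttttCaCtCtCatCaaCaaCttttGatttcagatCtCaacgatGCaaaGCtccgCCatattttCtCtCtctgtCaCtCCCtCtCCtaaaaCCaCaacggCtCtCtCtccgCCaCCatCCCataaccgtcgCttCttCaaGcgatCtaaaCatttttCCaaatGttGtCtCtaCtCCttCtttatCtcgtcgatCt
Strongest gain, chr2:603051-603350: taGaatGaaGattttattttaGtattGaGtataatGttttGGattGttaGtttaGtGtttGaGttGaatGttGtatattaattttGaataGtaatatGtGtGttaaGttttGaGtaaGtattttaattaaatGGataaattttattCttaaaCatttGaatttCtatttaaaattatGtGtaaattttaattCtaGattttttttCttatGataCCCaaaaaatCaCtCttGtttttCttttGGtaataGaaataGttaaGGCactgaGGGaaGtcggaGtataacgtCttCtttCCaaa
Next gain, chr5:20502051-20502350: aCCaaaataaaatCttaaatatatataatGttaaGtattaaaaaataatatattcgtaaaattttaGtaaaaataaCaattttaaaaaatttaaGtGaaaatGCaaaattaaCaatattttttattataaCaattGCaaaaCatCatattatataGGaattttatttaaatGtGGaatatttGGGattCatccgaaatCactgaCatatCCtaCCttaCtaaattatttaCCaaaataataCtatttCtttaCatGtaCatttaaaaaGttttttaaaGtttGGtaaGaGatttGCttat

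The strongest loss held 76 CHH cytosines, 68 on the printed strand and 8 on the other, in long C- and T-rich runs, together with 25 cytosines in CG context. In the strongest gain 46 of 63 CHH cytosines were on the opposite strand, and the next gain was nearly even, with 25 and 23. The strand of the CHH cytosines thus differed widely between these regions. The deposited differences join both strands, so the strand that changed cannot be read from them.

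The 164 regions with lower CHH methylation in mat nrpd1+/- had a median difference from WT of -14.1 percentage points, with a range of -48.1 to -10.1. The 391 regions with higher methylation had a median of 16.1 points and a range of 10.001 to 75.7. Against pat nrpd1+/-, the medians of the same regions were -13.7 and 15.6 points. The middle of both groups was thus some way above the threshold of 10 points, and 295 of the 555 regions differed from WT by 15 points or more. The gains reached further than the losses. A difference of at least 20 points was found at 41 lost and 134 gained regions, of at least 30 points at 12 and 48, and of at least 40 points at 5 and 16. A gain of at least 50 points was found at 6 regions, and no loss reached that size. The whole mat nrpd1+/- against WT list had 6 losses and 16 gains of at least 50 points, and its medians were -13.6 and 15.1 points.

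**Figure D1:**
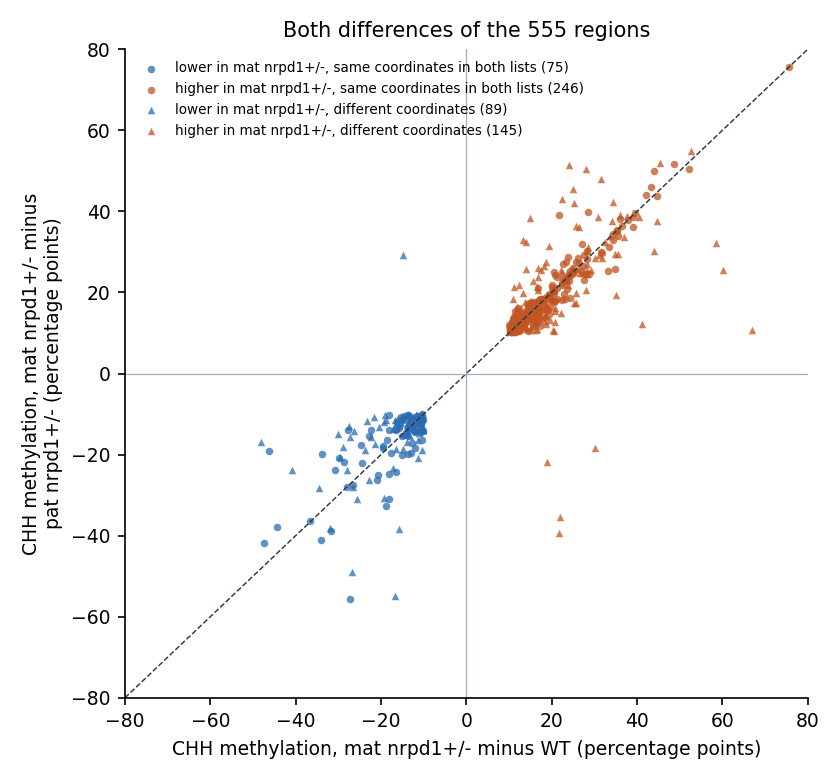
CHH methylation difference of mat nrpd1+/- from WT (x axis) against its difference from pat nrpd1+/- (y axis), in percentage points, for each of the 555 regions (circles, 321 regions with the same coordinates in both lists; triangles, regions with other coordinates; dashed line, equal differences). Most points lie along the line, the gains reach 75.7 points and the losses -48.1 points, and 5 regions have opposite signs.

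The losses were a minority both here and in the reciprocal regions of pat nrpd1+/-, but a majority among the regions that the heterozygotes shared. Of the 555 regions, 164 (29.5%) were lower in mat nrpd1+/-, against 334 of the 479 rows of the same list that overlapped the pat nrpd1+/- against WT list (69.7%) and 620 of the 1200 rows that overlapped neither other list (51.7%). The whole list was split evenly, with 1118 of 2234 rows lower (50.04%). In the reciprocal set, where pat nrpd1+/- differed from both mat nrpd1+/- and WT, 156 of 423 regions (36.9%) were lower in pat nrpd1+/-. Only 84 of the 479 shared rows were in all 3 lists, so at most of them WT was the genotype that stood apart. WT was higher than mat nrpd1+/- at the 334 rows counted as losses. The genotype that stood apart was thus more often the higher one in each of these sets, WT included. The rows of 1 list are not independent of each other, since the same pooled genotypes stand behind all of them, and no test was applied to these shares.

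**Figure D2:**
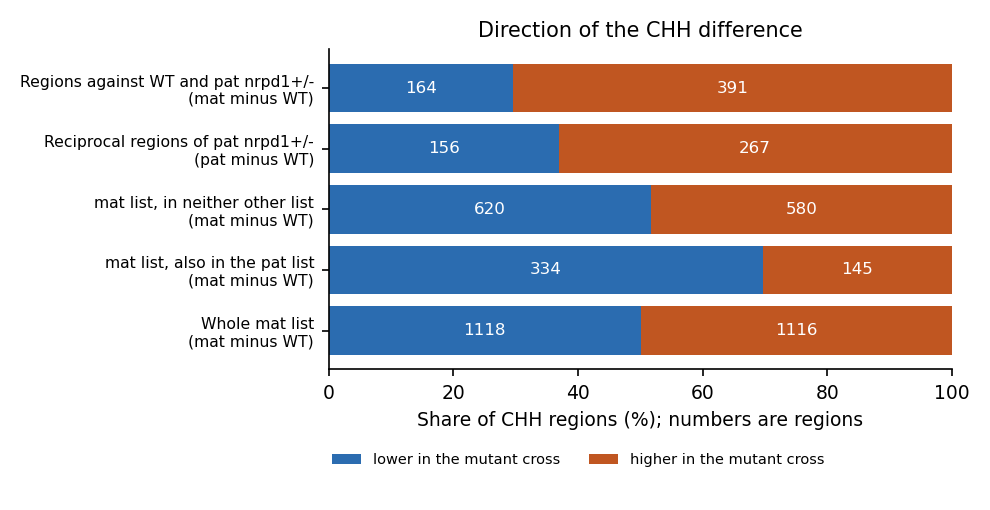
Share of CHH regions with lower (blue) and higher (orange) methylation in the mutant cross, in percent, for the 555 regions, the reciprocal 423 regions of pat nrpd1+/-, and 3 groupings of the mat nrpd1+/- against WT list (numbers in the bars are regions). Gains form 391 of the 555 regions and 267 of the reciprocal 423. Losses form 334 of the 479 rows shared with the pat nrpd1+/- against WT list, so WT is the higher genotype at those 334.

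The smaller share of losses was present at each size examined. Among the regions with a difference of at least 20 points, 23.4% of 175 were lower in mat nrpd1+/-, against 41.6% of 589 in the whole list. At 30 points or more 12 of 60 regions were lower, against 85 of 210 rows of the list. Regions longer than a single 300-bp window had 75 losses among 275 (27.3%), and those of a single window had 89 among 280 (31.8%). Of the 1200 rows in neither other list, 413 touched sequence that the authors set aside as variable between pat nrpd1+/- replicates, and removed from comparisons with that genotype, against 2 of the 555 regions. Within sequence kept in all 3 genotypes, the regions were 553 of 1805 rows (30.6%), and the rows in neither other list were lower in 403 of 774 (52.1%).

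At 321 regions the coordinates in both lists were the same, so that the difference of the 2 differences gives pat nrpd1+/- minus WT at that place, as far as the same cytosines entered both. For the 246 gained regions its median was 0, with a range of -17.4 to 9.04 points. For the 75 lost regions the median was -0.139 points, and the range of -27.2 to 28.3 points was wider. By this measure, pat nrpd1+/- and WT were within 5 points of each other at 290 of the 321 regions (90.3%). The rule had left out regions that overlap a row of the pat nrpd1+/- against WT list, so this closeness largely follows from the choice. Of all windows kept for that pair, only 1.12% touched a row of the list. Regions with other coordinates are not covered by this measure. At 37 regions, all of them gains, both differences were identical to the last digit, so that pat nrpd1+/- and WT had equal pooled levels over the cytosines used. The strongest gain was 1 of these, with 75.7 points against both genotypes.

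At 8 of the 321 regions, pat nrpd1+/- and WT differed by 10 points or more although no row of the pat nrpd1+/- against WT list overlapped. The widest was at chr1:13261601-13262100, with -27.3 points against WT and -55.6 against pat nrpd1+/-, which puts pat nrpd1+/- 28.3 points above WT. At chr3:18739301-18739600, 4723 bp from the nearest protein-coding gene start and more than 1 kb from any such gene, the differences were -46.3 and -19.1 points, which gives -27.2 points for pat nrpd1+/- against WT. Another lay in the gene for the auxin response factor ARF20, with 21.7 points against WT and 39.1 against pat nrpd1+/-. Of these 8 regions 6 were losses, although losses were 75 of the 321. Cytosines and windows had to pass the authors' coverage filter in each pair of genotypes, and which of them passed is not known from the lists.

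In 5 regions the difference from WT and the difference from pat nrpd1+/- had opposite signs. All of these had unlike coordinates in the 2 lists. The 2 differences thus cover sequence that is not the same, and the order of the genotypes cannot be read from them. By the rule, no row of the pat nrpd1+/- against WT list overlapped these regions. At chr2:5691601-5691900, upstream of GONST1, a GDP-mannose transporter of the Golgi, mat nrpd1+/- was 21.7 points above WT and -39.4 points from pat nrpd1+/-. At chr3:14811701-14812300 the values were 22.0 and -35.4 points, and at chr1:12565501-12565800 they were 19.0 and -21.9 points. At chr3:11369901-11370400 mat nrpd1+/- was the lower one against WT, with -14.8 points, and the higher one against pat nrpd1+/-, with 29.4 points. The remaining one, chr2:12812301-12813100, had 30.1 and -18.4 points and is described with the CG differences. The other 550 regions moved in the same direction against both genotypes.

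At the edges of the rule, the smallest difference from WT was 10.001 points, at a coding exon of TGA9, a bZIP transcription factor, and the smallest loss was -10.1 points, at chr4:16891301-16891600. The smallest difference from pat nrpd1+/- was -10.02 points, at chr5:8361801-8362300, followed by -10.09 points at KUP10, a potassium transporter, and -10.15 points at SAMBA, a regulator of the anaphase-promoting complex. The overlap of both lists was 100 bp at its smallest, in 5 regions with absolute differences from WT of 10.2 to 28.0 points. Just outside the rule, 11 rows abutted a row of the mat nrpd1+/- against pat nrpd1+/- list without overlap, with absolute differences of 10.1 to 50 points. On the other side, 5 of the 555 regions abutted a row of the pat nrpd1+/- against WT list, and 19 had one within 300 bp.

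Among the losses, the strongest lay away from coding sequence. The region at chr4:7561501-7561800 had -48.1 points against WT and -17.0 against pat nrpd1+/-, 6635 bp upstream of UND, an aspartic protease gene. This loss was thus much larger against WT than against pat nrpd1+/-, over coordinates that were not the same. At chr1:6198201-6198700, upstream of AT1G18010, the values were -44.4 and -37.7 points. WT endosperm therefore had at least 48.1% and 44.4% CHH methylation at these places, since a level cannot lose more than it holds. At chr2:11503501-11503800, upstream of MYB104, a member of the R2R3 MYB family, the values were -40.9 and -23.8 points. The 8 strongest losses included none over a protein-coding gene, against 45 of all 164 losses (27.4%). A count of 8 is too small to set them apart from the other losses.

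The largest loss over a protein-coding gene was at AT1G23200, with -33.8 points against WT and -19.8 against pat nrpd1+/-. Further examples, over or beside genes of known function, were chosen after their values were seen. In the pectin methylesterase gene PME44 a non-coding exon had -28.1 points against WT and -27.9 against pat nrpd1+/-. An intron of SULTR1;1, a sulfate transporter, had -27.1 and -15.7 points, and an intron of PEN1, an enzyme of triterpene synthesis, had -21.7 and -10.7 points. The other examples lay upstream of genes. The region 933 bp upstream of ARGAH2, an arginase, had -26.5 and -27.5 points. The one 283 bp upstream of RGA1, a DELLA repressor of gibberellin responses, had -19.0 and -10.2 points. Upstream of the sucrose transporter gene SUC8 the values were -15.7 and -38.3 points.

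The strongest gain, at chr2:603001-603400, lay 1252 bp upstream of AT2G02290, and mat nrpd1+/- endosperm had at least 75.7% CHH methylation there. At chr5:20502001-20502400, 415 bp upstream of AT5G50350, the gain was 67.03 points against WT but only 10.7 against pat nrpd1+/-, over 300 of its 400 bp. At chr1:14012301-14012700 the values were 60.2 and 25.6 points, and at chr1:16544501-16544900 they were 58.4 and 32.1 points. These 3 gains were thus much larger against WT than against pat nrpd1+/-, over coordinates that were not the same. The next ones were alike against both. At chr3:13969401-13970100, over the pseudogene AT3G33157, the values were 52.6 and 55.0 points, and at chr4:7230501-7230900, 708 bp upstream of AT4G12060, they were 52.2 and 50.5 points. In an intron of GSL09, a gene similar to callose synthase genes, the values were 48.6 and 51.8 points, and 83.0% of the 24-base words of this region occur more than once in the genome.

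Examples of gains over or beside genes of known function were again chosen after their values were seen. A coding exon of CIPK3, a protein kinase of calcium and abscisic acid signalling, had 36.8 points against WT and 33.7 against pat nrpd1+/-. At the start of AGP6, an arabinogalactan protein gene of pollen, the values were 33.3 and 31.1 points. A non-coding exon of LDL3, which encodes a histone demethylase of the LSD1 type, had 32.4 points against both. Each of these 3 lay within 200 bp of a gene start by its midpoint. At CLV3, the peptide signal that limits stem cell number in the shoot meristem, the values were 25.1 and 17.4 points. At CRF11, an ERF transcription factor, they were 28.1 and 50.5 points, and at the myosin gene XIF 25.7 and 27.5 points. A region 661 bp upstream of AT2G32710, a cyclin-dependent kinase inhibitor of the Kip-related family, had 27.7 and 23.1 points.

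Over the gene annotation, 184 of the 555 regions (33.2%) overlapped a protein-coding gene, against 28.6% of the whole mat nrpd1+/- against WT list and 61.4% of the kept 300-bp windows. Coding exons were touched by 97 regions, non-coding exons but no coding exon by 74, and introns alone by 13. A further 100 regions (18.0%) touched the 1 kb upstream of a protein-coding gene without touching a gene, against 15.1% of the list and 10.5% of the windows. Pseudogenes, which in this annotation include transposon-derived ones, held 66 regions (11.9%), against 16.4% of the list. Over any annotated gene, pseudogenes included, the regions hardly differed from the list, with 48.1% against 47.2%. The reciprocal 423 regions of pat nrpd1+/- were similar to the 555, with 33.6% over a protein-coding gene and 12.1% over a pseudogene. Among the 235 regions with at least 15 points in both lists, 25.1% overlapped a protein-coding gene, so the higher genic share was not found among the larger differences. Both the regions and the list touched coding exons less often than windows did, at 17.5% and 15.3% against 49.8%. The regions overlapped 190 protein-coding genes, and 341 regions had 1 or more of 451 such genes within 1 kb.

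**Figure D3:**
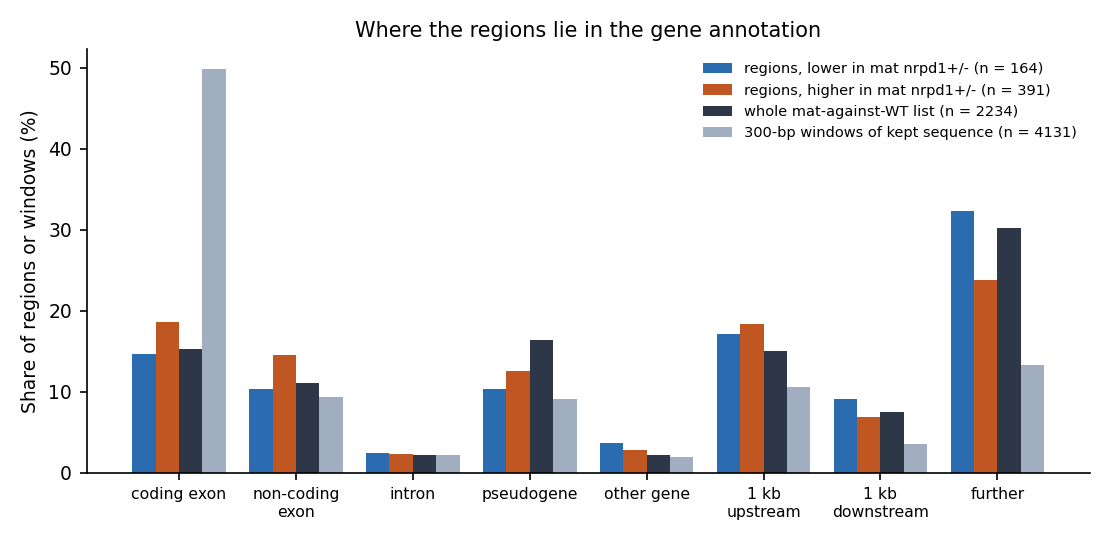
Share of regions or windows (y axis, percent) by the annotation they touch (x axis), for the 164 lost and the 391 gained regions, the whole mat nrpd1+/- against WT list and 4131 windows of kept sequence. Coding exons hold 49.8% of the windows but 17.5% of all 555 regions, and lost regions lie further from genes more often (32.3%) than gained ones (23.8%).

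By the direction of change, the gains were more often genic, though the intervals overlapped. A protein-coding gene was overlapped by 139 of the 391 gained regions (35.5%, 95% interval 30.8% to 40.5%). The share was 45 of the 164 lost ones (27.4%, 20.8% to 34.9%). In contrast, 93 gained (23.8%) and 53 lost regions (32.3%) lay more than 1 kb from any protein-coding gene and over no other gene. The intervals take the regions as independent, and the same split of the whole list is not given here. By midpoint, 142 regions were within 1 kb upstream of the nearest protein-coding gene start, 36 of them losses, and 91 were within 1 kb downstream of it, 23 of them losses. The 500 bp just upstream of a start held 15.3% of the regions, against 14.5% of the list and 10.02% of windows. From 500 to 1000 bp downstream of a start, the regions had 7.03%, the list 5.19% and windows 11.1%, so that windows now had the largest share.

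**Figure D4:**
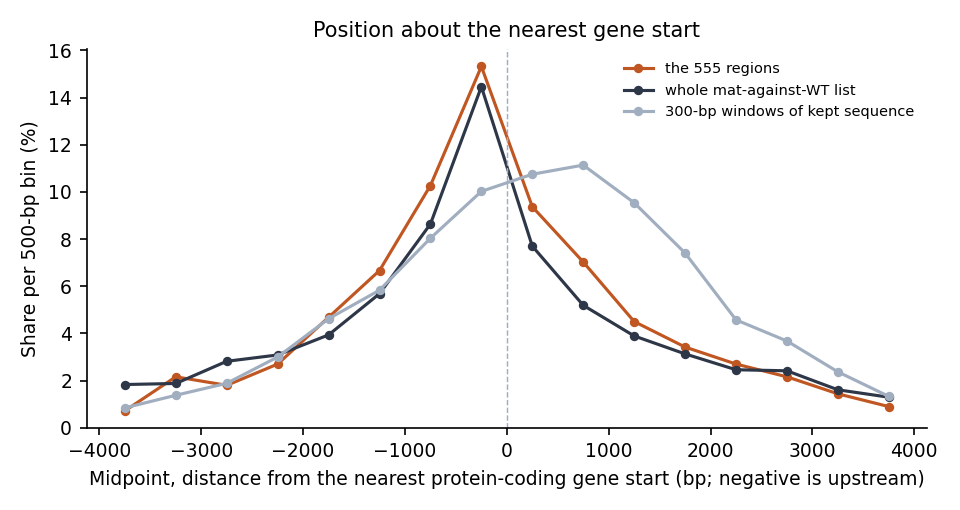
Distance of the midpoint from the nearest protein-coding gene start (x axis, bp, negative upstream) and share per 500-bp bin (y axis, percent) for the 555 regions, the whole mat nrpd1+/- against WT list and the kept windows. The regions peak at 15.3% in the bin just upstream of the start, where windows reach 10.02%, and fall below the windows downstream.

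By chromosome, the regions numbered 99, 115, 99, 126 and 116 on chromosomes 1 to 5. Scaled to the sequence kept in all 3 genotypes, chromosome 2 had the highest density with 9.0 per Mb, followed by chromosome 4 with 7.77, chromosome 1 with 6.97, chromosome 5 with 5.47 and chromosome 3 with 4.90. Losses were 49 of 126 regions on chromosome 4 and 22 of 116 on chromosome 5. Of the 555 regions, 201 (36.2%) lay in gene-poor bins of 500 kb, where protein-coding genes cover less than 40% of the sequence, against 37.6% of the reciprocal regions, 43.8% of the whole list and 19.9% of kept windows. In these bins 73 of 201 regions (36.3%) were losses, and in the other bins 91 of 354 (25.7%). In the whole list the corresponding shares were 54.0% and 47.0%. The regions were dispersed, with a median gap of 101.9 kb between neighbours and 4 of 550 neighbouring pairs within 1 kb.

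**Figure D5:**
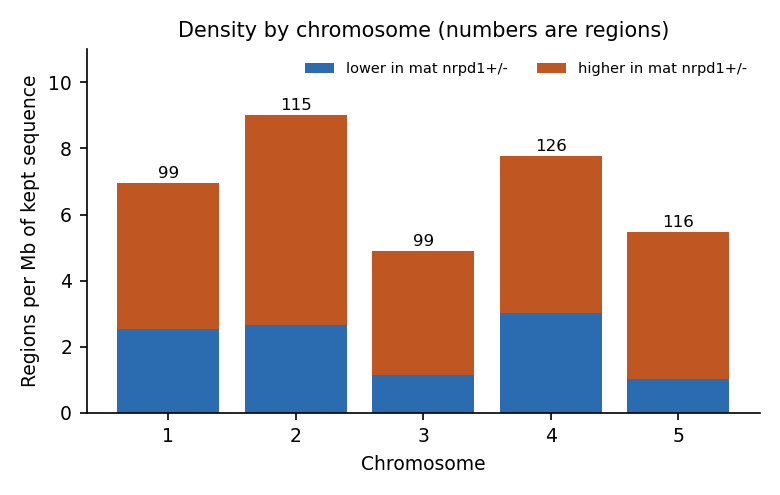
Regions per Mb of sequence kept in all 3 genotypes (y axis) on each chromosome (x axis), lost (blue) and gained (orange), with the number of regions above each bar. Chromosome 2 is highest at 9.0 per Mb and chromosome 3 lowest at 4.90 per Mb, and gains outnumber losses on every chromosome.

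In base composition the regions were poor in G and C. The median GC content was 29.5%, against 30.5% in the list and 36.3% in kept windows, and there were 23.3 CHH cytosines per 100 bp, against 23.8 and 26.3. CG cytosines numbered 3.25 per 100 bp, against 3.33 and 4. The regions differed little from the list in these measures. CAA and CTA, the trinucleotides that CMT2 is known to prefer, made up a median of 31.4% of CHH cytosines, against 30.8% in the list and 28.2% in windows. No 24-base word was repeated in the genome in 42.2% of the regions, against 35.2% of the list and 64.9% of windows. Only 65 regions shared a 24-base word with another of the 555, and none shared 50% or more of its words. At 64 regions at least 50% of the words were repeated, and 23 of these were losses. Reads from such copies may not be told apart.

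CG differences seldom went with the CHH differences. A CG DMR of mat nrpd1+/- against WT was overlapped by 11 regions (1.98%), of mat nrpd1+/- against pat nrpd1+/- by 15 (2.70%) and of pat nrpd1+/- against WT by 8 (1.44%). Any of the 3 was overlapped by 22 regions (3.96%), against 3.09% of the whole list and 1.19% of windows. Over the windows kept for each CG comparison, 0.367%, 0.744% and 0.368% touched a CG DMR. These lists used a higher threshold of 30 points. Against WT, all 5 gained regions with a CG DMR also gained CG methylation, whereas of the 6 lost regions 4 lost and 2 gained it. None of the 555 regions overlapped sequence set aside for variable CG methylation. The 95% interval of such a count reaches 0.662% if the regions are taken as independent. The share was low elsewhere too, with at most 3 of 2234 rows of the list and at most 0.363% of windows for any genotype.

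The strongest CHH loss was 1 of the 2 with opposite signs. At chr4:7561501-7561800 CG methylation was 43.2 points higher in mat nrpd1+/- than in WT and 50.1 points higher than in pat nrpd1+/-, over the sequence with 25 CG cytosines shown above. At chr1:6723001-6723400, over the pseudogene AT1G19420, both contexts were higher, with 24.7 points in CHH and 58.6 points in CG against WT, and 26.0 and 74.9 points against pat nrpd1+/-. At chr4:6685301-6685800 CHH was 34.4 points higher against both, and CG was 56.9 points higher against WT and 43.5 points higher against pat nrpd1+/-. There CG was also 49.4 points higher in pat nrpd1+/- than in WT. Of these 3, CHH and CG had opposite signs only at the first. At chr2:12812301-12813100 the CHH differences from WT and from pat nrpd1+/- had opposite signs. CG there was 53.4 points higher in mat nrpd1+/- than in pat nrpd1+/- and -55.0 points in pat nrpd1+/- against WT. At chr1:14012301-14012700, among the strongest CHH gains, CG was -35.6 points in mat nrpd1+/- against pat nrpd1+/-, while CHH was 25.6 points higher. Both contexts were lower at chr3:11286601-11287100, with -31.8 points in CHH and -37.2 points in CG against WT.

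Of all 20729 protein-coding genes with more than 50% of the gene and its 1-kb flanks kept in all 3 genotypes, 450 (2.17%) had 1 of the 555 regions within 1 kb, and 7.37% had a row of the whole list. The lists of pathway genes are short, and their counts are read against these shares. Of 23 genes of RNA-directed DNA methylation, among them RDR2, DCL3, AGO4 and DRM2, 21 had such kept sequence, and none had 1 of the regions or a row of the whole list within 1 kb. NRPD1 itself was not among the 21, as none of its surroundings were kept, so its own locus was not assessed. Of 12 genes of methylation maintenance and removal, 7 of them with kept sequence, only MET1, the CG maintenance methyltransferase, had one. It lay at chr5:19938501-19939000, downstream of the MET1 end and over a coding exon of AT5G49170, with -13.5 points against WT and -11.4 against pat nrpd1+/-. Of 19 endosperm and imprinted genes, 13 of them with kept sequence, only HDG8, a homeodomain gene of the HD-ZIP IV family, had one. It lay between the HDG8 end and the start of UGP1, 790 bp upstream of the UGP1 start, with -31.9 and -38.1 points. With 2.17% of all genes reached, counts of 0 or 1 in lists of this length do not set these genes apart.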

How the data were processed

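Per the labels and methods, bisulfite reads were trimmed with Trim Galore, checked with FastQC and aligned to TAIR10 with Bismark by the authors, allowing non-directional reads and treating mates as single reads. Methylation was computed in 300-bp windows that advanced by 100 bp, from pooled replicates, with a minimum of shared cytosines and of reads per cytosine. Windows past the threshold (10 percentage points in CHH, 30 in CG) were joined. The deposited lists of DMRs give region coordinates and a difference in percentage points, a score with no count behind it. The authors removed sequence whose methylation varied between replicates and sequence whose maternal share of reads departed from that of endosperm, and the deposited lists of the latter give the maternal read fraction. The depth per sample is not given in these files. In 1 list the header names the columns out of order, and the difference was read from its values.

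Regions were intersected in Python 3.11.15 with pandas 2.3.3 and numpy 2.4.6, with a minimum overlap of 1 bp, after tests on simulated regions. Genes, pseudogenes and sequence came from RefSeq's TAIR10.1, whose nuclear chromosomes have the lengths used in TAIR10. A gene was near within 1 kb. Kept sequence, 300-bp windows of it (every 200th for features) and the share of 24-base words found more than once in the genome were computed from the deposited lists and the reference. Regions named in full were the 8 strongest losses and gains, the longest, those with the strongest CG differences, those near listed genes, those just inside the thresholds and those of opposite sign, and further genes are marked as chosen later. An item among the strongest losses is not reported here. The regions and gene lists were chosen with earlier results of these data known. No test was applied. Alternatives were another overlap, threshold, gene distance, gene density or region length.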

Additional observations from a re-analysis of the deposited data

How the results depend on the processing

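Gains outnumbered losses under every alternative, although the features of the regions moved with some of them. With at least 15 points required in both lists, there were 235 regions and 20.4% were lower in mat nrpd1+/-. In these, the share over a protein-coding gene was 25.1%, below the 28.6% of the whole list, and the median share of repeated 24-base words was 5.04%, above its 3.61%. Regions longer than a single window numbered 275, with 41.1% in gene-poor bins. Regions with identical coordinates in both lists, an alternative added after seeing the data, numbered 321, with 23.4% lower and 30.5% in gene-poor bins. With less than 50% of the 24-base words repeated, also added after seeing the data, 31.6% were in gene-poor bins, and with gene-poor set below 30% of coding cover, 28.3%. No paired analysis was possible because the replicates were pooled before deposit, and for the same reason no replicate could be left out. Without levels and depth, the precision of a difference and windows that lacked coverage in 1 genotype are not known.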
